A study of Equus caballus with 19 samples.

Results

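The genes described here make the pericellular coat of tendon cells: ACAN, VCAN, HAPLN1, HAPLN3, TNFAIP6, HAS1, HAS2, HAS3, CD44 and HYAL2. They were chosen by name, and all 10 were among the 29196 gene names in each of the deposited tables. Hyaluronan is a long unbranched sugar chain that is spun out through the plasma membrane by the hyaluronan synthases HAS1, HAS2 and HAS3. Aggrecan (ACAN) and versican (VCAN) are large proteoglycans whose globular head binds to hyaluronan, link proteins such as HAPLN1 and HAPLN3 lock that bond, and the secreted protein of TNFAIP6 (also named TSG-6) attaches heavy chains of inter-alpha-inhibitor to hyaluronan and so cross-links it. CD44 is the main cell surface receptor for hyaluronan and HYAL2 is a membrane-anchored hyaluronidase. In tendon, aggrecan is known from regions under compression, and versican from the narrow matrix around the tendon cells.

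The cells were wild-type tenocytes grown out of the superficial digital flexor tendon of adult horses, with each line from its own animal, and every library came from cells held for 14 days in gels of bovine type I collagen. In the first batch, 5 lines (lines 1 to 5) were kept as unstimulated control or with 1 nM IL-1β, an inflammatory cytokine, which gave 10 libraries. In the second batch, 3 further lines (lines 6 to 8) were kept as control, with 1 nM IL-1β, or with both 1 nM IL-1β and 100 ng/ml IL1Ra, the protein that occupies the IL-1 receptor without activating it, which gave 9 libraries. IL1Ra without IL-1β was not among the sequenced conditions.

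All values are counts per gene that the authors normalised for library depth, and each gene was compared only with itself across libraries, since counts were not divided by gene length. A log2-fold change is the difference between the condition means of log2(normalised count + 1), which understates the change of genes with few counts. A gene was called DE (differentially expressed) where the adjusted p of limma was under 0.05 and the log2-fold change was at least 1 in size. Normalised counts summed to between 43393903 and 49197980 per library in the first batch, and to between 24964149 and 34602014 in the second. Of 12 listed tenocyte markers, 11 were in the tables and 9 reached 10 normalised counts in every first-batch control, while TNMD was at 0 in every library of that batch. Summed tenocyte markers were 1152730 to 1912100 in the first-batch controls and 510393 to 996530 with IL-1β. These sums were mostly COL1A1 (mean 634135 in control and 190022 with IL-1β) and COL1A2 (696773 and 281677). Means of SCX, MKX, TNC, COMP, FMOD and THBS4 were also lower with IL-1β. DCN (61194 to 101598) and LUM (61554.5 to 116896) went the other way. The 4 chondrocyte markers, COL2A1, COL9A1, MATN1 and COL11A2, summed to at most 8.48 normalised counts in any library. Summed leukocyte markers were 320 to 371 in the controls and 490 to 1568 with IL-1β in the first batch, and summed pericyte and smooth muscle markers were 3317 to 12409 and 1259 to 3134. For the control, IL-1β and IL-1β + IL1Ra libraries of lines 6 to 8, leukocyte markers summed to 361 to 569, 514 to 2127 and 444 to 1700, and the T cell marker CD3E was at 0 in every control and IL-1β library of both batches. Pericyte and smooth muscle markers there summed to 921 to 3145, 310 to 1055 and 352 to 466, and tenocyte markers to 305821 to 958364, 384135 to 597576 and 177457 to 934468. Endothelial markers summed to at most 84.7 in any library. In the first batch the tenocyte, leukocyte, and pericyte and smooth muscle sums did not overlap between control and IL-1β libraries. In the second batch each of these sums overlapped between control and IL-1β, and endothelial sums overlapped in both batches. The part of the marker levels in the results was not tested. In libraries of whole cultures, fewer cells that express a gene and less RNA of it per cell cannot be told apart.

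IL-1β split the group in the first batch. VCAN and TNFAIP6 were upregulated, ACAN and HAPLN3 were downregulated, and HAS1, HAS2, HAS3, CD44 and HYAL2 were not DE. That is 4 DE genes of the 9 members with enough counts to test, against 12.8% of all 14719 genes tested. HAPLN1 was the member left out by the filter in both batches. The median log2-fold change of the 9 tested members was 0.13, and that of all genes tested was -0.0034, with members on either side of 0.

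**Figure D1:**
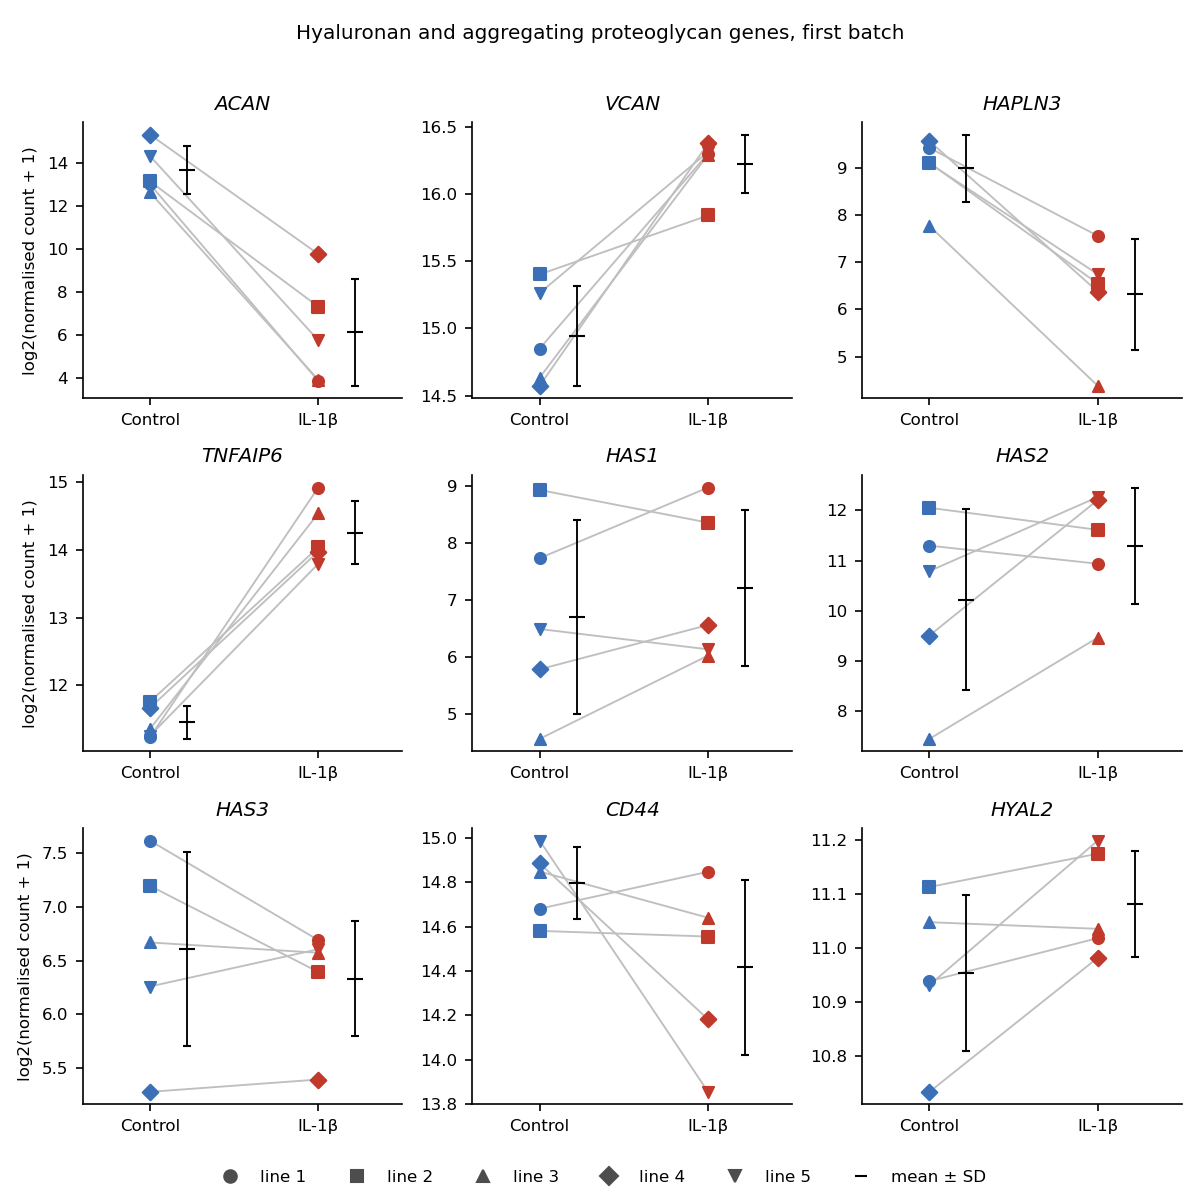
Level of 9 member genes in the first batch as log2(normalised count + 1), in control and IL-1β libraries, with each line's libraries joined by a grey line (symbols, lines 1 to 5; black bars, mean ± SD of 5 libraries; each panel has its own axis, which does not start at 0). The control and IL-1β points do not overlap for ACAN, VCAN, HAPLN3 and TNFAIP6, and they overlap for the other 5 genes.

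ACAN encodes aggrecan, the proteoglycan that carries the densest brush of chondroitin and keratan sulphate chains. Control libraries of lines 1 to 5 held 8244, 9050, 6340, 40668 and 20484 normalised counts, and the IL-1β libraries of the same lines held 13.7, 160, 14.3, 872 and 53.6. Every IL-1β library was below every control library, and line 4 was the highest of both conditions. The mean was 16957 ± 14368 in control and 223 ± 368 with IL-1β (SD, n = 5), a log2-fold change of -7.55 (SE 1.06, 95% CI -9.89 to -5.21, adjusted p = 7.29e-04). This is 187-fold lower on the scale of the geometric means. The fall ranged from -9.13 in line 1 to -5.54 in line 4 on the log2 scale.

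In the second batch the 3 control lines started at very different ACAN levels. Line 6 held 11864 normalised counts in control, 226 with IL-1β and 5245 with IL-1β + IL1Ra. Line 7 held 670, was listed at 0, and held 16.2 in the same order, and line 8 held 160, 13.1 and 18.2. Within each line the IL-1β library was the lowest and the IL-1β + IL1Ra library lay between it and the control, but the conditions overlapped because line 6 stood so far above the other 2 lines. Whether the value listed at 0 is a true absence or a failed estimate was not tested. The translation factor gene EIF2S2 was listed at 0 in 6 of the 9 libraries, and GAPDH and ACTB in 0. No mean of ACAN is given for that condition, and its fold change depends on the added 1. The log2-fold change of ACAN with IL-1β was -6.20 (95% CI -12.55 to 0.15, adjusted p = 0.447), lower in 3 of 3 lines. With the tenocyte line as a block in the fit the adjusted p was 0.0224, and ACAN was then DE, beside 5.18% of all genes tested in that fit.

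With IL1Ra added, the log2-fold change of ACAN against control was -3.18 (95% CI -9.53 to 3.17, adjusted p = 1) and that against IL-1β was 3.03 (95% CI -3.32 to 9.38), higher in 3 of 3 lines. With the line as a block these intervals were -5.67 to -0.68 and 0.53 to 5.52, and neither change was DE (adjusted p = 0.266 and 0.489). Both comparisons use the same 3 IL-1β + IL1Ra libraries, and each shares its other 3 libraries with the comparison of IL-1β with control, so none of them is independent of the others. Without line 7, whose IL-1β value was listed at 0, the log2-fold changes were -4.61 with IL-1β, -2.12 with IL-1β + IL1Ra against control and 2.49 between the stimulated conditions, and this last value was 4.32 without line 8. The share of the IL-1β change on the log2 scale that was left with IL1Ra was 20.6% in line 6 and 87.4% in line 8, and none is given for line 7.

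VCAN encodes versican, the large proteoglycan of provisional and pericellular matrix, and it moved the other way. Control libraries of lines 1 to 5 held 29549, 43309, 25442, 24390 and 39346 normalised counts, and IL-1β libraries held 80768, 58683, 80293, 85111 and 81449. The conditions did not overlap, and line 2, the highest in control, was the lowest with IL-1β. The mean rose from 32407 ± 8484 to 77261 ± 10557 (SD, n = 5), a log2-fold change of 1.28 (SE 0.19, 95% CI 0.86 to 1.70, adjusted p = 0.00107), higher in 5 of 5 lines. The IL-1β libraries of lines 1, 3, 4 and 5 lay within a narrow range of one another.

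In the second batch, VCAN in lines 6, 7 and 8 was 8798, 20008 and 10820 in control, 38206, 29529 and 68738 with IL-1β, and 12243, 40348 and 67150 with IL-1β + IL1Ra. All IL-1β libraries were above all controls. The log2-fold change with IL-1β was 1.78 (95% CI 0.31 to 3.26, adjusted p = 0.330), so VCAN was not DE there, and the block left it not DE (adjusted p = 0.0955). Under IL1Ra the lines parted: line 6 was close to its control, line 7 was above its own IL-1β library, and line 8 stayed at its IL-1β level. Of the IL-1β change of VCAN, 22.5% was left in line 6, 180% in line 7 and 98.7% in line 8. The log2-fold change was 1.37 against control (95% CI -0.10 to 2.85, adjusted p = 0.910) and -0.41 against IL-1β (95% CI -1.88 to 1.06). The first was 0.74 without line 8, and the second turned to 0.21 without line 6.

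**Figure D2:**
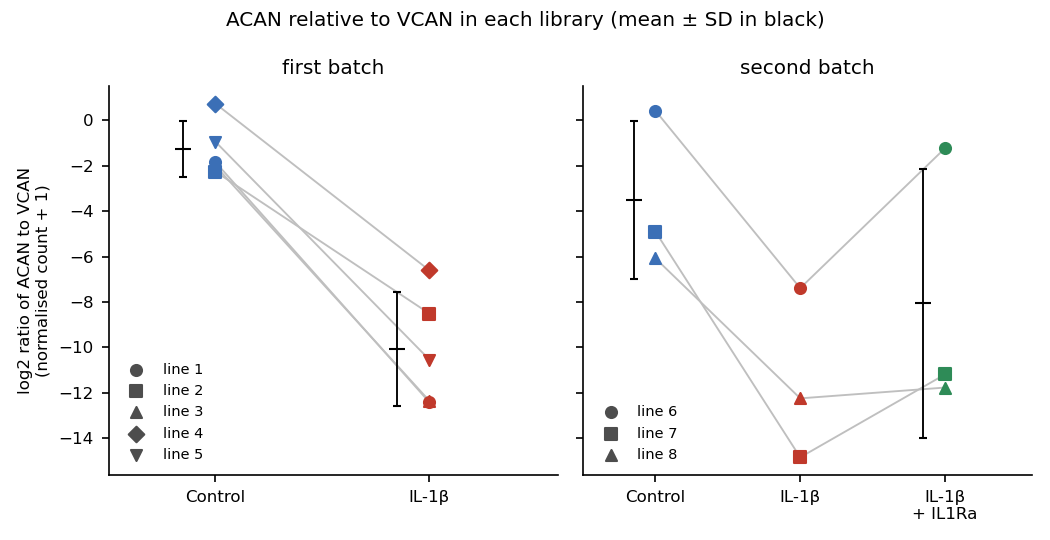
Log2 ratio of ACAN to VCAN (normalised count + 1) in each library of the first batch (left) and second batch (right), with each line joined by a grey line and the mean ± SD in black (not drawn for IL-1β in the second batch, where 1 ACAN value was listed at 0). Gene length shifts all points alike, so only differences between libraries can be read, and the ratio falls with IL-1β in all 8 lines.

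Because the counts were not divided by length, the ratio of ACAN to VCAN has no meaning as a level, but its change between libraries does. In the first batch the log2 ratio was -1.26 ± 1.22 in control and -10.09 ± 2.52 with IL-1β (SD, n = 5). The 5 control ratios ran from -2.26 in line 2 to 0.74 in line 4, and the 5 IL-1β ratios from -12.42 in line 1 to -6.61 in line 4. In the second batch line 6 went from 0.43 in control to -7.39 with IL-1β and was at -1.22 with IL1Ra. The other 2 lines stayed low with IL1Ra: line 7 went from -4.90 to -14.85, a value set by the added 1, and -11.19, and line 8 from -6.07 to -12.25 and -11.77. No test was made of these ratios.

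HAPLN3 and HAPLN1 encode link proteins, which hold a proteoglycan head to the hyaluronan chain. In the RefSeq gene table of the horse, HAPLN3 and ACAN are neighbours with 0 protein-coding genes between them, and so are HAPLN1 and VCAN. HAPLN1 gave almost no signal: it was at 0 in 15 of 19 libraries and at most 2.64 normalised counts in the rest. No condition stood out for HAPLN1, and it was not tested.

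HAPLN3 held 689, 553, 218, 761 and 548 normalised counts in the controls of lines 1 to 5, and 188, 92.6, 19.8, 82.0 and 106 with IL-1β. The conditions did not overlap, and line 3 was the lowest in both. The mean fell from 554 ± 209 to 97.7 ± 60.3 (SD, n = 5), a log2-fold change of -2.68 (SE 0.55, 95% CI -3.89 to -1.46, adjusted p = 0.00549), lower in 5 of 5 lines.

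The second batch gave HAPLN3 values of 459, 451 and 101 in the controls of lines 6, 7 and 8, 20.7, 226 and 36.3 with IL-1β, and 109, 39.5 and 29.3 with IL-1β + IL1Ra. Every stimulated library was below its own control, but line 8 in control was below line 7 with IL-1β, so the conditions overlapped. The log2-fold change was -2.28 with IL-1β (95% CI -4.53 to -0.03, adjusted p = 0.432) and -2.43 with IL-1β + IL1Ra (95% CI -4.68 to -0.18, adjusted p = 0.834), neither DE. The value with IL-1β was -1.22 without line 6. Between IL-1β + IL1Ra and IL-1β it was -0.15 (95% CI -2.40 to 2.10), and the lines differed in sign: line 6 was higher by 2.34 with IL1Ra on the log2 scale, while line 7 was at -2.49 and line 8 at -0.30.

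TNFAIP6, the cross-linker, was upregulated in both batches. Control libraries of lines 1 to 5 held 2408, 3464, 2623, 3257 and 2448 normalised counts, and IL-1β libraries held 30907, 16765, 23746, 16070 and 14187. The lowest IL-1β library was well above the highest control, and line 1, the lowest control, was the highest with IL-1β. The mean rose from 2840 ± 488 to 20335 ± 6931 (SD, n = 5), a log2-fold change of 2.79 (SE 0.21, 95% CI 2.33 to 3.26, adjusted p = 2.58e-05), which placed it 35 by p among 14719 genes.

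The same lines 6, 7 and 8 held TNFAIP6 at 2478, 1821 and 1788 in control, 17702, 24351 and 20111 with IL-1β, and 6736, 14771 and 11241 with IL-1β + IL1Ra. The 3 conditions formed 3 separate ranges, with the IL1Ra libraries in the middle. TNFAIP6 rose with IL-1β by 3.36 on the log2 scale (SE 0.30, 95% CI 2.66 to 4.05, adjusted p = 0.0146), the member that was DE in both batches. It was 1 of 9 members called in that comparison, against 0.341% of all 16705 genes tested, and it ranked 2 by p. The call was lost without line 7 (adjusted p = 0.343) or line 8 (0.609) and was kept without line 6 (0.00442). The log2-fold change stayed between 3.16 and 3.62 without each line. Without line 7 or line 8, 0 genes in the whole table were DE.

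With IL-1β + IL1Ra, TNFAIP6 was still above its control in each of the 3 lines. The difference was 2.37 on the log2 scale (SE 0.30, 95% CI 1.68 to 3.07, adjusted p = 0.0864). With the line as a block it was DE (adjusted p = 0.0358, beside 0.251% of all genes tested), and without line 6 it was DE as well (log2-fold change 2.84, adjusted p = 0.0216). Its adjusted p was 1 without line 7 (log2-fold change 2.05) and without line 8 (2.23). Of the members, 0 were DE in this comparison without the block, against 0.012% of all genes tested, and 2 had an unadjusted p under 0.05 (of all genes, 948). Against IL-1β alone TNFAIP6 was -0.98 on the log2 scale (95% CI -1.68 to -0.29, adjusted p = 1), lower in 3 of 3 lines. In that comparison 0 members were DE, as were 0% of all genes tested (0.00599% with the block), and 2 members had an unadjusted p under 0.05, TNFAIP6 and HYAL2 (464 of all genes). The share of the TNFAIP6 change left with IL1Ra was 50.9%, 80.7% and 76.0% in lines 6, 7 and 8, with a mean of 69.2 ± 16.0% (SD, n = 3).

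**Figure D3:**
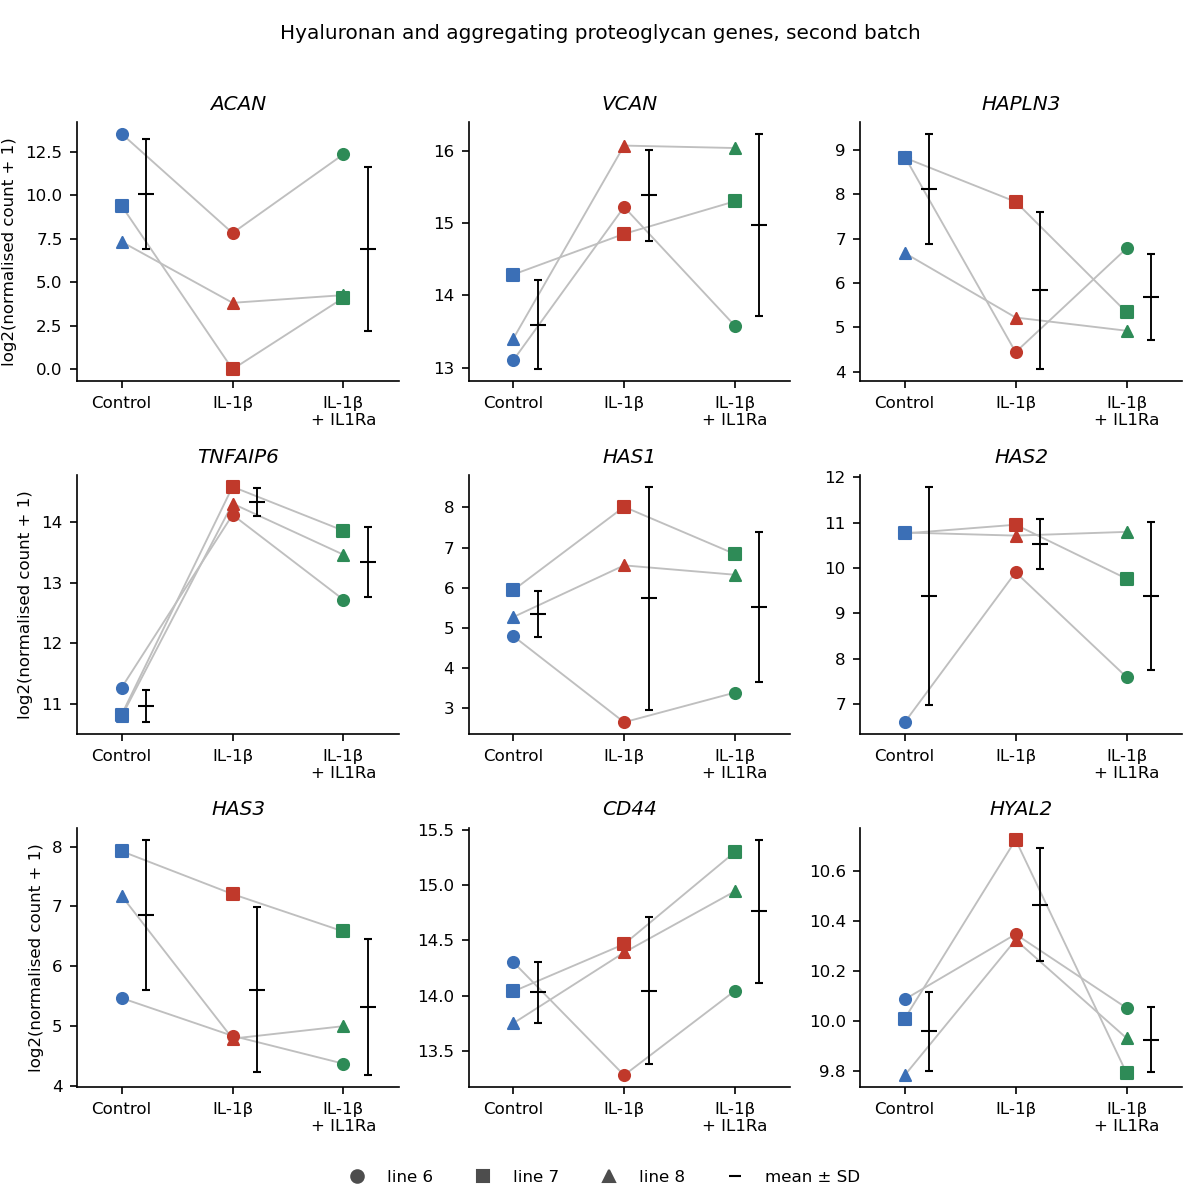
Level of 9 member genes in the second batch as log2(normalised count + 1), in control, IL-1β and IL-1β + IL1Ra libraries, with each line's libraries joined (symbols, lines 6 to 8; black bars, mean ± SD of 3 libraries, left out where a value was listed at 0; each panel has its own axis, which does not start at 0). The 3 conditions are separate for TNFAIP6, and line 6 has the highest ACAN and the lowest HAS2 in every condition.

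The 3 hyaluronan synthases were not DE in any comparison, and their spread between lines was wide. HAS2 encodes the synthase known as the main one in most connective tissue cells. In the controls of lines 1 to 5 it held 2514, 4247, 173, 725 and 1770 normalised counts, and with IL-1β 1959, 3132, 705, 4735 and 4931. The lines with the highest HAS2 in control, lines 1 and 2, were a little lower with IL-1β, and the other 3 lines were higher, by 1.48 to 2.70 on the log2 scale. The highest control was 24.6 times the lowest, and the highest IL-1β library 7.0 times the lowest. For HAS2 the log2-fold change was 1.08 (SE 0.84, 95% CI -0.77 to 2.93, adjusted p = 0.369). With the line as a block the interval was -0.10 to 2.26 (adjusted p = 0.121).

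In lines 6, 7 and 8, HAS2 was 96.5, 1735 and 1759 in control, 959, 1981 and 1678 with IL-1β, and 193, 870 and 1776 with IL-1β + IL1Ra. Line 6 was the lowest in each condition, and it was also the line whose IL-1β library stood furthest above its control, by 3.30 on the log2 scale against 0.19 and -0.07. Line 8 barely moved across the 3 conditions. The log2-fold change was 1.14 with IL-1β (95% CI -1.59 to 3.87, adjusted p = 0.826), 0.0039 with IL-1β + IL1Ra against control (95% CI -2.73 to 2.73) and -1.14 between the stimulated conditions (95% CI -3.87 to 1.59). Without line 6 the first of these was 0.061 and the last -0.55, and the middle one ran from -0.49 without line 6 to 0.50 without line 7. Intervals of this width hold both a large rise and a large fall, but the fit behind them leaves out the line. With the line as a block they were -0.29 to 2.57, -1.43 to 1.44 and -2.57 to 0.30, and HAS2 was still not DE.

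HAS1, the synthase with the lowest activity in cell assays, held 211, 484, 22.7, 54.0 and 88.7 normalised counts in the controls of lines 1 to 5, and 499, 326, 64.0, 93.2 and 69.1 with IL-1β. It was higher in 3 lines and lower in 2, and the log2-fold change was 0.51 (95% CI -1.38 to 2.40, adjusted p = 0.698). In lines 6, 7 and 8 it was 26.9, 60.3 and 37.6 in control, 5.30, 257 and 93.1 with IL-1β, and 9.51, 113 and 79.1 with IL-1β + IL1Ra. With IL-1β, line 6 was below its control and lines 7 and 8 were above theirs, whereas for HAS2 line 6 was furthest above its control. The log2-fold change with IL-1β was 0.41 (95% CI -2.77 to 3.58, adjusted p = 0.963), and it was 1.68 without line 6.

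HAS3, the synthase that makes shorter chains, held 196, 146, 101, 37.8 and 75.6 normalised counts in the controls of lines 1 to 5, and 102, 83.2, 94.3, 41.0 and 96.5 with IL-1β. The conditions overlapped, and the log2-fold change was -0.27 (95% CI -1.24 to 0.70, adjusted p = 0.683). In lines 6, 7 and 8 it was 43.2, 242 and 144 in control, 27.5, 147 and 26.6 with IL-1β, and 19.7, 94.8 and 30.9 with IL-1β + IL1Ra. Both stimulated libraries were below the control in each of the 3 lines, with log2-fold changes of -1.25 (95% CI -3.35 to 0.86, adjusted p = 0.711) and -1.54 (95% CI -3.64 to 0.56, adjusted p = 1). Without line 8 the value with IL-1β was -0.67. With the line as a block the 2 intervals were -2.18 to -0.31 and -2.47 to -0.61, and neither change was DE (adjusted p = 0.120 and 0.189). The log2 ratio of HAS3 to HAS2 was -3.61 ± 1.65 in control and -4.97 ± 1.48 with IL-1β in the first batch (SD, n = 5), and it was lower with IL-1β in every line, with no test made.

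CD44, the receptor, was present at high counts in every library and was not DE. It ran from 24502 to 32495 in the first-batch controls (28604 ± 3201) and from 14816 to 29477 with IL-1β (22498 ± 5802; SD, n = 5). Lines 4 and 5 were clearly lower with IL-1β, lines 2 and 3 slightly lower, and line 1 slightly higher. Over the 5 lines the log2-fold change of CD44 was -0.38 (95% CI -0.78 to 0.02, adjusted p = 0.146). In lines 6, 7 and 8, CD44 was 20223, 16816 and 13773 in control, 9951, 22614 and 21464 with IL-1β, and 16897, 40281 and 31505 with IL-1β + IL1Ra. The IL-1β + IL1Ra library was above the IL-1β library in 3 of 3 lines, by 0.55 to 0.83 on the log2 scale, and in lines 7 and 8 it was the highest of the 3 libraries. The log2-fold change was 0.01 with IL-1β (95% CI -0.96 to 0.99), 0.73 with IL-1β + IL1Ra against control (95% CI -0.24 to 1.70) and 0.72 between the stimulated conditions (95% CI -0.25 to 1.69), each with an adjusted p above the threshold. The first ran from -0.30 without line 8 to 0.53 without line 6, and the value of 0.73 became 1.23 without line 6 and 0.47 without line 7.

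HYAL2, the membrane hyaluronidase, had the smallest standard error of the 9 tested members in both batches. Its mean was 1990 ± 195 in control and 2172 ± 149 with IL-1β in the first batch (SD, n = 5), a log2-fold change of 0.13 (SE 0.09, 95% CI -0.07 to 0.33, adjusted p = 0.315). The interval leaves room for a rise of at most 0.33 on the log2 scale. In lines 6, 7 and 8, HYAL2 was 1087, 1031 and 881 in control, 1302, 1692 and 1282 with IL-1β, and 1062, 887 and 976 with IL-1β + IL1Ra. The IL-1β libraries were above all others, and the control and IL-1β + IL1Ra libraries overlapped. The log2-fold change was 0.50 with IL-1β (95% CI 0.10 to 0.91, adjusted p = 0.311), -0.03 with IL-1β + IL1Ra against control (95% CI -0.44 to 0.37) and -0.54 between the stimulated conditions (95% CI -0.94 to -0.14, adjusted p = 1), so the shift was not DE in either direction. The last of these was -0.34 without line 7.

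**Figure D4:**
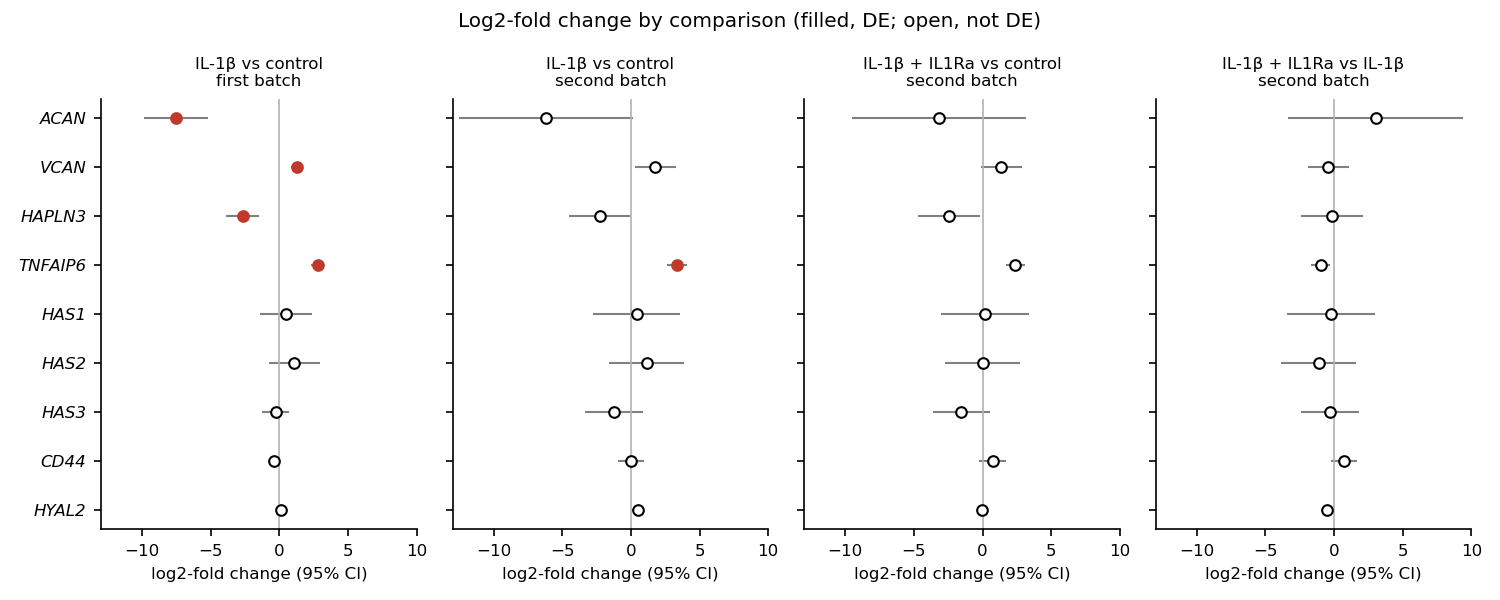
Log2-fold change of 9 member genes in the 4 comparisons, with 95% confidence intervals from limma (filled, DE; open, not DE). In the first batch ACAN, VCAN, HAPLN3 and TNFAIP6 are DE, in the second batch TNFAIP6 is DE with IL-1β against control, and the intervals of ACAN are the widest in the second batch.

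Groups that did not overlap were counted as a plain description: 4 of the 9 tested members with IL-1β in the first batch, where 19.5% of all genes tested did so, and 3 (VCAN, TNFAIP6 and HYAL2) in the second batch, where 16.4% did. TNFAIP6 was the 1 member whose IL-1β + IL1Ra and control libraries did not overlap (11.8% of all genes tested), and TNFAIP6 and HYAL2 were the 2 members whose stimulated conditions did not (6.47%). Over the members, the median log2-fold change in the second batch was 0.41 with IL-1β, 0.0039 with IL-1β + IL1Ra against control and -0.29 between the stimulated conditions, beside -0.0084, 0.0095 and 0.0088 for all genes tested. With IL-1β in the second batch 4 members had an unadjusted p under 0.05, of 1907 genes in all.

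The other genes of the pathway were taken from 7 lists with 42 genes, of which 39 were in the tables. Enough counts for a test were held by 30 genes of the first batch and 28 of the second. With IL-1β in the first batch 5 of the 30 were upregulated and 4 downregulated, beside 4.91% and 7.9% of all genes tested. With IL-1β in the second batch 1 of the 28 was DE, beside 0.341% of all 16705 genes tested (6 with the block, beside 5.18%). With IL1Ra 0 were DE, beside 0.012% of all genes against control and 0% against IL-1β. There 8 and 2 list genes had an unadjusted p under 0.05, of 948 and 464 genes in all.

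The proteases that cut the proteoglycan cores changed in both directions. ADAMTS4 and ADAMTS5, the main aggrecan-cleaving enzymes of cartilage, rose by 2.49 (SE 0.35, adjusted p = 7.67e-04) and 1.56 (SE 0.31, adjusted p = 0.00481) on the log2 scale in the first batch, each in 5 of 5 lines. Mean ADAMTS4 went from 585 ± 275 to 3240 ± 1459 normalised counts and ADAMTS5 from 3757 ± 1443 to 11342 ± 4840 (SD, n = 5). ADAMTS1, which can cleave both aggrecan and versican, fell, with a log2-fold change of -1.24 (adjusted p = 0.0308), a call that was lost when line 1, 2, 4 or 5 was left out. Over lines 6 to 8 ADAMTS4 was at 2.56 (adjusted p = 0.318) and ADAMTS5 at 1.17 (adjusted p = 0.176), and with the block they were DE (adjusted p = 0.0273 and 0.0381). With IL-1β + IL1Ra against control, ADAMTS4 was at 2.33 (95% CI 0.27 to 4.39) and ADAMTS5 at 1.14 (95% CI 0.46 to 1.83), neither DE. ADAMTS9 was higher with IL-1β in both batches (1.18 and 1.60 on the log2 scale) and DE with the block only (adjusted p = 0.0130 and 0.0382). ADAMTS15 was lower in lines 1 to 5, at -1.27, and DE with the block only (adjusted p = 0.0399). In the second batch it was at 0.83 (adjusted p = 0.849), higher with IL-1β in lines 7 and 8 and lower in line 6. With IL-1β + IL1Ra, ADAMTS15 in lines 6, 7 and 8 was at -2.35, -3.25 and -2.27 against control on the log2 scale. Against IL-1β it was at -2.12, -4.72 and -3.51, and it was DE in neither comparison.

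The SOX factors, which act on the aggrecan gene in cartilage, also divided. SOX9 and SOX6 fell, with log2-fold changes of -2.97 (adjusted p = 0.00114) and -3.92 (adjusted p = 0.00134), while SOX5 rose by 3.30 (adjusted p = 3.86e-05), each in the same direction in 5 of 5 lines of the first batch. SOX5 was the list gene that was DE in the second batch, at 3.37 (adjusted p = 0.0468), a call lost without line 7 (adjusted p = 0.432) or line 8 (0.752). SOX9 was at -3.03 there (adjusted p = 0.177), and DE with the block (adjusted p = 0.00917). SOX6 was at -1.65 (adjusted p = 0.844), with 2 lines lower and 1 higher.

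Among the genes of hyaluronan breakdown, 1 of 6 tested was DE in the first batch, beside 12.8% of all genes tested. That was TMEM2 (also named CEMIP2), a cell surface protein linked to hyaluronan breakdown, which rose from 9410 ± 3393 to 22080 ± 4753 normalised counts (SD, n = 5), by 1.27 on the log2 scale (adjusted p = 0.00264). Lines 6 to 8 gave TMEM2 values that were higher with IL-1β in 3 of 3 lines, at 1.32 (adjusted p = 0.357). CEMIP, of the same list, went the other way without being DE. Its first-batch mean was 11108.5 ± 13039 in control and 3362 ± 1190 with IL-1β (SD, n = 5), with line 1 higher. In lines 6, 7 and 8 CEMIP was at -2.37, -0.46 and -1.03 on the log2 scale.

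Of the other receptors, LAYN (layilin) fell with IL-1β in lines 1 to 5. Its mean went from 172 ± 53.8 to 56.6 ± 22.8 (SD, n = 5), or -1.60 on the log2 scale (adjusted p = 0.00828). HMMR, the hyaluronan receptor that is also part of the mitotic spindle, was at -0.98 (adjusted p = 0.181), and in lines 6 to 8 at -2.03 (adjusted p = 0.359). LYVE1, best known from lymphatic vessels, was DE with the block in the second batch (log2-fold change -2.96, adjusted p = 0.0413, and 0.120 without the block).

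PTX3 is the pentraxin that joins the TNFAIP6 cross-links in the matrix around the oocyte. It rose from 9.50 ± 9.10 to 71.3 ± 19.8 normalised counts (SD, n = 5), by 3.21 on the log2 scale (adjusted p = 0.0031), and it was at 2.85 in the second batch (adjusted p = 0.249). ITIH5, an inter-alpha-inhibitor heavy chain gene, was at 0.93 in the first batch (adjusted p = 0.101). In the first batch 0 of the 6 tested genes of sugar nucleotide supply were DE. Of the other lecticans and link proteins 0 of 3 were, beside 12.8% of all genes tested. UGDH, which makes the UDP-glucuronic acid used by the synthases, was at 0.54 (adjusted p = 0.171), and HAPLN4, a link protein known from brain, at 0.34 (adjusted p = 0.182).

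**Figure D5:**
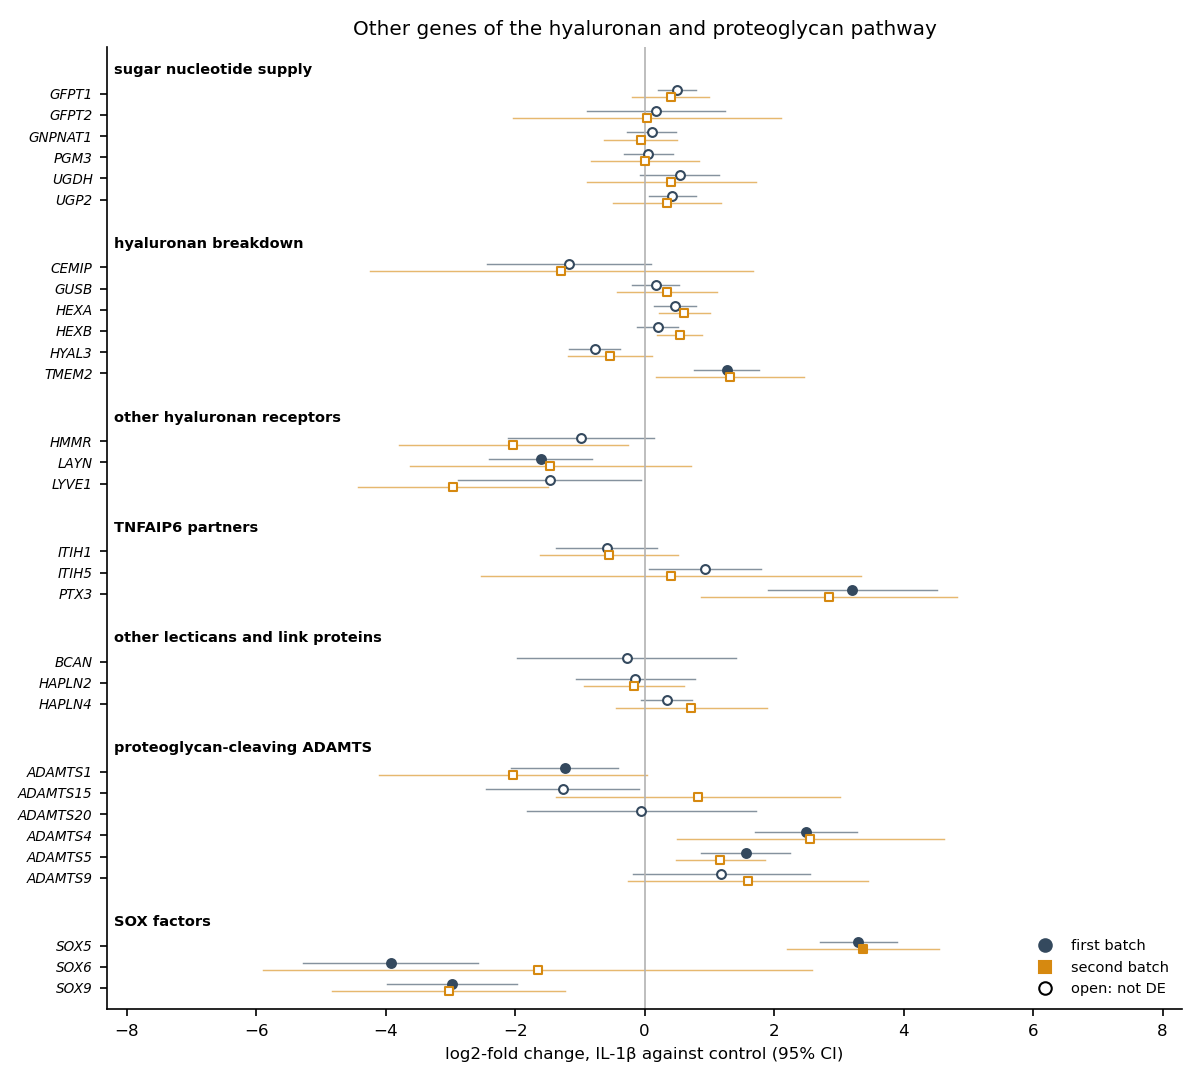
Log2-fold change with IL-1β against control of the tested genes of 7 pathway lists, with 95% confidence intervals (circles, first batch; squares, second batch; filled, DE; open, not DE). ADAMTS4, ADAMTS5, SOX5, PTX3 and TMEM2 lie to the right of 0 in both batches, and SOX9 and LAYN to the left.

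Genes whose levels followed a member closely were found by Pearson correlation of log2(normalised count + 1) among 14478 genes tested in both batches. It was taken over the 10 libraries of the first batch and, apart from that, over the 9 of the second, and the lower value set the rank. Members and genes with LOC names were left out of the ranking, so such a gene may follow more closely than those named. For ACAN they were TRIO (r = 0.962 and 0.980), AQP1 (0.965 and 0.963) and ASPN (0.962 and 0.964). The second-batch values of ACAN include line 7 with IL-1β, listed at 0, and r was not taken without that library. For TNFAIP6 they were GPR84 (0.983 and 0.975), MIP-2BETA (0.981 and 0.971) and REPS1 (0.969 and 0.978). For HAS2 they were WNT5A (0.945 and 0.895), PKD1 (0.911 and 0.906) and MEF2D (0.894 and 0.963). The libraries of a batch share condition and line, so these values describe likeness across the libraries and carry no p.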

How the data were processed

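RNA from 19 gels of 8 tenocyte lines was sequenced from stranded mRNA libraries. The authors assigned reads to EquCab3.0 transcripts with Salmon and summed them to genes, and the deposited signal values are gene counts that they normalised with DESeq2 (version 1.36 in R 4.2.1), in a separate table for each batch. No table header states the normalisation, which is taken from the methods of the study and the submitters' processing notes. All columns were mapped to a sample, and 0 pairs of libraries were identical. Values under 15 were whole multiples of 1 read, within 0.05 reads, for 50.7% to 70.5% of values per library, so whole reads could not be recovered and count models were not used. These values carry no interval for counting error, and the smaller sums of the second batch make low values less certain.

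Values entered the tests as log2(normalised count + 1). A gene was tested if 5 libraries of the first batch, or 3 of the second, reached 10 normalised counts. The tests were made with limma 3.58.1, run in R 4.3.3, by lmFit and eBayes with trend and condition as the term. The 9 second-batch libraries were fitted together. Adjusted p-values are Benjamini-Hochberg values over all genes tested in a comparison. The fit was tested on simulated libraries drawn without a line effect, so that test does not cover the pairing by line. The members, the lists and the tests were chosen with earlier results of these data known. All members were named, and of the lists each DE gene and the gene with the highest mean. For ACAN, HAS2 and TNFAIP6 the 3 most similar genes were named, with members and LOC names left out. Genes DE with the block only were named after their values were seen.

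Libraries of a line come from the same animal, so lines pair the libraries. As a check, deviations from the condition means were correlated. In the first batch r was 0.35 to 0.58 for the 5 pairs from 1 line and -0.36 to 0.29 for the 20 pairs from different lines. In the second batch it was 0.54 to 0.79 (9 pairs) and -0.62 to 0.25 (18 pairs). Alternatives were the line as a block, other pseudocounts, filters and scalings, a fit without trend, fits on the 2 conditions compared, and leaving out each line. UAP1, HYAL1 and HYAL4 were not analysed here. The RefSeq gene table is of another horse assembly than that of the authors, so it gave names (10 of 10 members matched) and neighbours but no coordinates.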

Additional observations from a re-analysis of the deposited data

Results flagged for a closer look

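Within groups of 5 libraries, a value was marked where the gap to its nearest neighbour took up most of the range (Dixon's test at the 95% level, 28 groups). Chance marks about 1 in 20 such groups where values are normally distributed. Gene levels entered as normalised counts, which are often skewed, so that rate need not hold for them. ACAN with IL-1β was marked for line 4, at 872 normalised counts against at most 160 in the other 4 lines. On the log2 scale these ACAN values were more evenly spread, at 3.88, 7.33, 3.93, 9.77 and 5.77 in lines 1 to 5, so the mark depends on the scale. VCAN with IL-1β was marked for line 2, at 58683 against at least 80293. HAPLN1 was marked for line 1 in control (2.64) and for line 3 with IL-1β (1.05), with the other 4 lines at 0 in both groups. Where 4 values are at 0, any other value is marked. The log2 ratio of HAPLN1 to HAPLN3 with IL-1β was marked for line 3 (-3.34), and rests on that HAPLN1 value. The log2 ratio of HAS3 to HAS2 in control was marked for line 3 (-0.77), the line with the lowest HAS2.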

How the results depend on the processing

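In the first batch ACAN, VCAN, HAPLN3 and TNFAIP6 stayed DE in the same direction under every alternative run and without each line; their log2-fold changes without a line ran from -8.05 to -7.15, 1.15 to 1.49, -2.88 to -2.50 and 2.57 to 2.92. The replicate block (tenocyte line) changed 2 member calls, both in the second batch: ACAN with IL-1β (members DE lower, 1 in place of 0) and TNFAIP6 with IL-1β + IL1Ra against control (members DE higher, 1 in place of 0). Without each line the members DE higher numbered 0 to 1 in each of these comparisons. Other pathway genes DE with IL-1β in the second batch numbered 1 higher and 0 lower. They numbered 4 and 2 with the block, 0 higher with no filter, rescaled by library sum, without trend or with the fit on 2 conditions, and 0 to 2 higher and 0 to 1 lower without each line. All-gene DE there was 57, 865 with the block, 339 without line 6 and 0 without line 7 or 8. The change of the HAS1 to HAS2 log2 ratio there was -0.74, and -2.04 to 1.62 without each line.

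Rescaling by library sum moved the median log2-fold change of all genes by -0.181 for IL-1β (to -0.189) and by 0.1003 for IL-1β + IL1Ra against IL-1β (to 0.109) in the second batch. The direction reversed for genes near 0, none of them DE. With IL-1β in the second batch CD44 was at -0.17 rescaled by library sum and -0.00034 with TMM factors, and -0.30, -0.19 and 0.53 without line 8, 7 or 6. HAS1 was at -0.43 without line 7, -0.035 without line 8 and 1.68 without line 6. For IL-1β + IL1Ra against control, HAS2 was at -0.0025 with pseudocount 4, -0.078 by library sum, -0.018 with TMM factors and -0.49, 0.50 and -0.00099 without line 6, 7 or 8, HAS1 at 0.98, -0.18 and -0.25 in that order and HYAL2 at -0.13 to 0.057 without each line. For IL-1β + IL1Ra against IL-1β, ADAMTS5 was at 0.072 by library sum and -0.22 to 0.26 without each line. Ranges without each line were -0.84 to 0.21 for VCAN, -1.39 to 1.02 for HAPLN3, -0.70 to 0.25 for HAS1, -1.09 to 0.053 for LAYN and -0.86 to 0.26 for ADAMTS4. The cause was not tested. With 3 lines and a main fit that leaves out the line, the second batch gives wide intervals for ACAN and the synthases. With the line as a block the SE with IL-1β was 1.07 in place of 2.77 for ACAN. It was 0.74 in place of 1.39 for HAS1, 0.61 in place of 1.19 for HAS2 and 0.40 in place of 0.92 for HAS3.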
